A study of Mus musculus with 16 samples.

Results

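The genes described here are the drebrin gene *Dbn1* and 9 other genes of drebrin-like or contractile actin-binding proteins, *Dbnl*, *Acta2*, *Tagln*, *Tagln2*, *Cnn1*, *Cnn2*, *Tpm1*, *Tpm2* and *Myl9*. They were taken by gene symbol from a table of 14474 genes, and 9 of the 10 were analysed, each of which passed the low-count filter. *Cnn1* is not analysed here. *Dbn1* was chosen by its measured values, namely its differences between MKα3+ and MKα3− cells in vehicle and between LN332 and vehicle in MKα3+ cells, so its values in these comparisons are given as a description with no test. The other genes were chosen by name and known function, with earlier results of these data known.

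RNA was sequenced from immortalized mouse keratinocytes with and without the integrin α3 subunit, to ask which transcripts depend on integrin α3β1 and which respond to its ligand laminin-332 (LN332). MKα3− cells lack α3 integrin, and MKα3+ cells are the null line reconstituted with human α3, so each genotype is represented by 1 line, and α3 and other differences between the lines cannot be told apart. Both lines were grown on collagen-coated dishes in low-calcium medium and received either 0.02 mg/mL LN332 or an equal volume of its vehicle, buffered saline with glycine and azide, for 16 to 24 h. Each of the 4 groups had 4 libraries. The labels do not say whether the libraries came from separate cultures, so p-values measure the spread between these samples, which may be technical.

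Actin filaments are bundled, stabilized and coupled to myosin II by side-binding proteins. Drebrin binds along filaments and is best known from dendritic spines, but it is also found at epithelial junctions and adhesions. Tropomyosins lie along the filament and set which other proteins reach it, calponins and transgelins are filament-stabilizing proteins, smooth muscle α-actin is the actin of contractile cells, and the regulatory light chain switches myosin II on. Many of these genes are classical targets of serum response factor (SRF), which binds the CArG box, and some are targets of TEAD factors, which bind the sequence CATTCC.

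The 250 bases before an annotated transcription start, not always the outermost of the gene, are shown for 5 genes. Of these, *Dbn1* and *Tpm1* moved together across the groups, and the windows of *Cnn2*, *Acta2* and *Myl9* hold CArG boxes or close variants. The sequences are RefSeq promoter windows on GRCm38.p6, written 5′ to 3′ on the strand of the gene. They lie at chr13:55488077-55488326 (minus strand) for *Dbn1*, chr9:67049214-67049463 (minus) for *Tpm1*, chr10:79988350-79988599 (plus) for *Cnn2*, chr19:34255374-34255623 (minus) for *Acta2* and chr2:156775214-156775463 (plus) for *Myl9*. By these positions the *Tpm1* window lies wholly inside the span given below for its gene. Those of *Dbn1*, *Acta2* and *Myl9* lie partly inside theirs. Motifs before other starts of these genes were not searched. Capitals mark a CArG box, a CArG box with 1 substitution among its middle bases, or CATTCC on either strand.
Dbn1: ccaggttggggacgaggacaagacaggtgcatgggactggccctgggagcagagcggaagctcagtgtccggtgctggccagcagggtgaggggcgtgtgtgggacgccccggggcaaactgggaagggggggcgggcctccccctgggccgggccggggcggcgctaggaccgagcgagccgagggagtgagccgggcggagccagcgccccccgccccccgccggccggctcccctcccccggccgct
Tpm1: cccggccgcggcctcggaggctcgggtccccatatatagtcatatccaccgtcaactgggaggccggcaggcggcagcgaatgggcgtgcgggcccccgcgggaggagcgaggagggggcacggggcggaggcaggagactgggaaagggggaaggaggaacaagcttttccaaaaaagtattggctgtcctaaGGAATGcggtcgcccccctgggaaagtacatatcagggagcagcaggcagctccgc
Cnn2: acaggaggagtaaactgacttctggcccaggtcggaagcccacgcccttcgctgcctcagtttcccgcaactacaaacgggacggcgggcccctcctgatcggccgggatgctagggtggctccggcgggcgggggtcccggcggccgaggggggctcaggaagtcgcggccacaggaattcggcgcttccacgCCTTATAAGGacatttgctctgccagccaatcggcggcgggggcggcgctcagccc
Acta2: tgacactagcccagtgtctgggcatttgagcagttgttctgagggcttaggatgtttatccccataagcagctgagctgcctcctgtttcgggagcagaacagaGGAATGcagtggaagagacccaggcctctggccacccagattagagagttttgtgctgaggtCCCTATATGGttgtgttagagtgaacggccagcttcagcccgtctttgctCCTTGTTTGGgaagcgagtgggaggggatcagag
Myl9: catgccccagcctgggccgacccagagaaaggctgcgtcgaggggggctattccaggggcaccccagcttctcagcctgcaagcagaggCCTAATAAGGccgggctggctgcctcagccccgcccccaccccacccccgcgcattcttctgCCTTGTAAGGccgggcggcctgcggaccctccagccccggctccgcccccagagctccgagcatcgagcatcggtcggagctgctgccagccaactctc
A window was matched for 8 of the 9 analysed genes, all but *Tagln*. An intact CArG box stood at −56 to −47 in *Cnn2* and at −161 to −152 in *Myl9*, counted from −1 at the base before the start, and such a box was in 1.47% of all 32817 windows of this length. The variant with 1 substitution was at −84 to −75 and −34 to −25 in *Acta2* and at −99 to −90 in *Myl9*, and in 7.25% of all windows. CATTCC was at −56 to −51 in *Tpm1*, at −146 to −141 in *Acta2* and at −118 to −113 and −80 to −75 in *Tagln2*, and in 12.6% of all windows. The windows of *Dbn1*, *Dbnl* and *Tpm2* held none of these letters, and no matches overlapped each other. A match describes the sequence and was not tested as a site.

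Total counts per library were between 21735708 and 29338370 (median 27036993). Mouse *Itga3*, the targeted gene, had between 4530 and 8830 counts in every library and was at 259 ± 42.4 CPM in vehicle-treated MKα3− cells and 277 ± 46.8 CPM in vehicle-treated MKα3+ cells (SD, n = 4, where CPM are counts scaled to the TMM-normalized library size), so its count did not tell the lines apart. The 8 keratinocyte markers were all present, with a summed level of between 8470 and 19056 CPM. By the threshold given below, 1 of them in vehicle (*Perp*) and 3 in LN332 (*Krt5*, *Trp63* and *Perp*) were lower in MKα3+ cells. Over all genes 18.5% and 20.6% passed, in either direction. *Krt14* had the opposite sign, at 0.47 in vehicle and 0.30 in LN332 on the log2 scale, and did not pass. Of 6 smooth muscle markers 3 were present, with *Smtn*, which is not restricted to smooth muscle, holding most of a sum of between 159 and 317 CPM. *Myh11* and *Des* had group means of between 0.876 and 3.18 CPM, highest in vehicle-treated MKα3− cells, and *Lmod1*, *Synpo2* and *Myocd* are not analysed here. In vehicle 1 of the 3 passed, *Des*, lower in MKα3+ cells at −1.55 (limma-voom adjusted p = 0.0113), and in LN332 0 passed. *Smtn* had the opposite sign, at 0.26 in vehicle and 0.47 in LN332, and did not pass. Of 9 fibroblast markers 6 were present. Their sum was between 15.2 and 35.9 CPM in vehicle-treated and between 24.2 and 39.4 CPM in LN332-treated MKα3− libraries. In MKα3+ libraries it was between 22.4 and 42.0 CPM in vehicle and between 30.6 and 48.6 CPM in LN332. Between the lines 0 of the 6 passed, in vehicle or in LN332, and their part in the results was not tested. In bulk RNA, fewer cells of a type and less RNA per cell cannot be told apart.

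**Figure D1:**
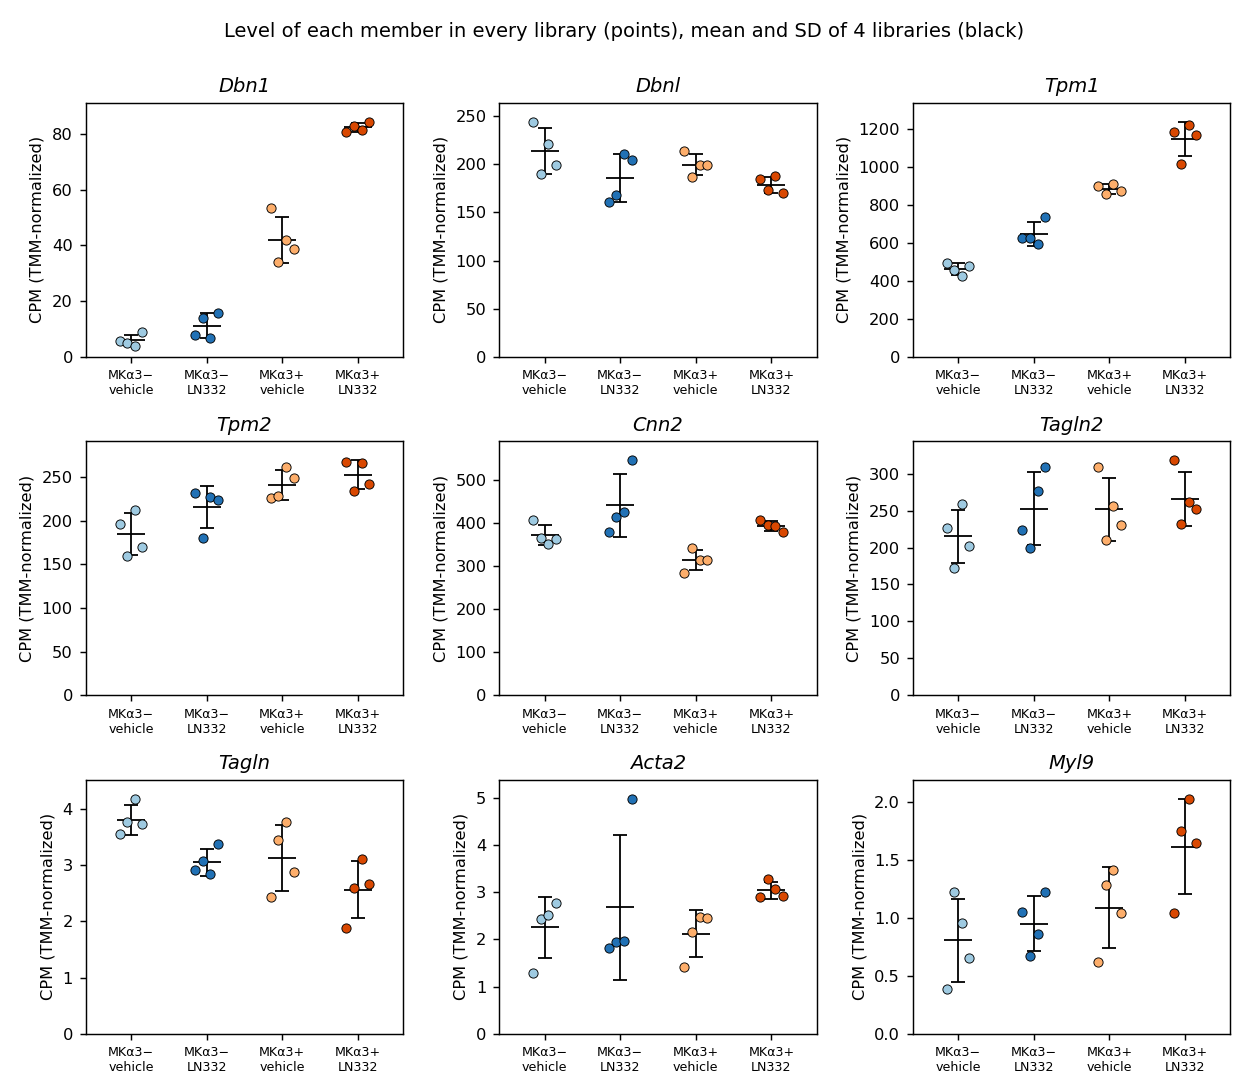
TMM-normalized CPM (vertical axes from 0) of the 9 analysed genes in the 4 groups (horizontal axis), with 1 point a library and black bars for the mean and SD of 4 libraries. *Dbn1* and *Tpm1* step up from vehicle-treated MKα3− cells to LN332-treated MKα3+ cells, while the other genes vary within narrower ranges.

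*Dbn1* (Entrez 56320, chromosome 13, 55473428 to 55488126) was the member with the widest range in fold terms. Its 4 libraries of vehicle-treated MKα3− cells were at 5.51, 5.09, 4.00 and 8.70 CPM, on 113 to 252 counts. Those of vehicle-treated MKα3+ cells were at 53.4, 34.0, 42.1 and 38.7 CPM. Every MKα3+ library was above every MKα3− library, with means of 42.1 ± 8.25 and 5.83 ± 2.02 CPM (SD, n = 4), a ratio of 7.22-fold that was fitted as 2.89 on the log2 scale (SE 0.25). In LN332, MKα3+ libraries were at 80.9, 82.9, 81.6 and 84.5 CPM and MKα3− libraries at 7.95, 14.0, 6.57 and 15.8 CPM, 3.01 apart on the log2 scale (SE 0.22). These MKα3+ libraries were also used in the choice, so this value too is a description. The LN332-treated MKα3+ group was also the tightest, with an SD of 1.57 CPM about a mean of 82.5 CPM.

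With LN332, *Dbn1* in MKα3+ cells went from between 34.0 and 53.4 CPM to between 80.9 and 84.5 CPM with no overlap, a 1.96-fold ratio of means and a log2 fold change of 0.99 (SE 0.18). This is a comparison by which the gene was chosen. In MKα3− cells, which the choice did not use in LN332, the ratio was 1.90-fold and the log2 fold change 0.86 (SE 0.28, 95% interval 0.26 to 1.46). Replicates 2 and 4 of the LN332 group, at 14.0 and 15.8 CPM, were above all vehicle libraries, and replicates 1 and 3, at 7.95 and 6.57 CPM, were not above the highest vehicle library. The adjusted p was 0.197 in limma-voom, and a two-sided exact permutation of the CPM values gave p = 0.0857. The threshold was passed in DESeq2, with an adjusted p of 0.0180. The vehicle libraries of this comparison are also those of the choice. Choosing a gene by a wide gap between the lines favours a low vehicle level in MKα3− cells, which can push this response upward. Its p-values are therefore not read as tests. The response in MKα3+ cells minus that in MKα3− cells was 0.13 on the log2 scale (SE 0.34, 95% interval −0.58 to 0.83), an interval that holds differences of either sign, and was −0.11 without LN332-treated MKα3− replicate 3.

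*Dbnl* (Entrez 13169, chromosome 11, 5788483 to 5800980), which encodes the drebrin-like adaptor that binds actin and dynamin, did not share this range. It was at 214 ± 24.1 CPM in vehicle-treated MKα3− cells, 186 ± 25.3 CPM in LN332-treated MKα3− cells, 200 ± 11.0 CPM in vehicle-treated MKα3+ cells and 179 ± 8.46 CPM in LN332-treated MKα3+ cells (SD, n = 4). The groups overlapped in every comparison. The α3 effect was −0.09 (95% interval −0.31 to 0.12) in vehicle and −0.05 (95% interval −0.26 to 0.16) in LN332 on the log2 scale. The LN332 responses were −0.20 in MKα3− and −0.16 in MKα3+ cells, with adjusted p-values of 0.387 and 0.711 from limma-voom.

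In vehicle, 2 of the 9 analysed genes passed the threshold between the lines (an adjusted p under 0.05 in limma-voom and an absolute log2 fold change over 0.5), *Dbn1* and *Tpm1*, against 18.5% of all genes. In LN332 the same genes passed, 2 of 9, against 20.6% of all genes. These shares are near the background. *Dbn1* was chosen on the vehicle comparison, and its choice also used the LN332-treated MKα3+ libraries, so nothing is read from its part in either count. The median log2 fold change of the 9 genes was 0.23 in vehicle and in LN332, against a median of 0.01 over all genes in each. Both medians include *Dbn1*, whose choice used libraries of each comparison, so no shift of the set is read from them. Groups did not overlap for 4 of the 9 genes in vehicle (32.9% of all genes) and for 3 of the 9 in LN332 (26.5% of all genes). *Dbn1* is in each count, and nothing is read from its part in them.

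**Figure D2:**
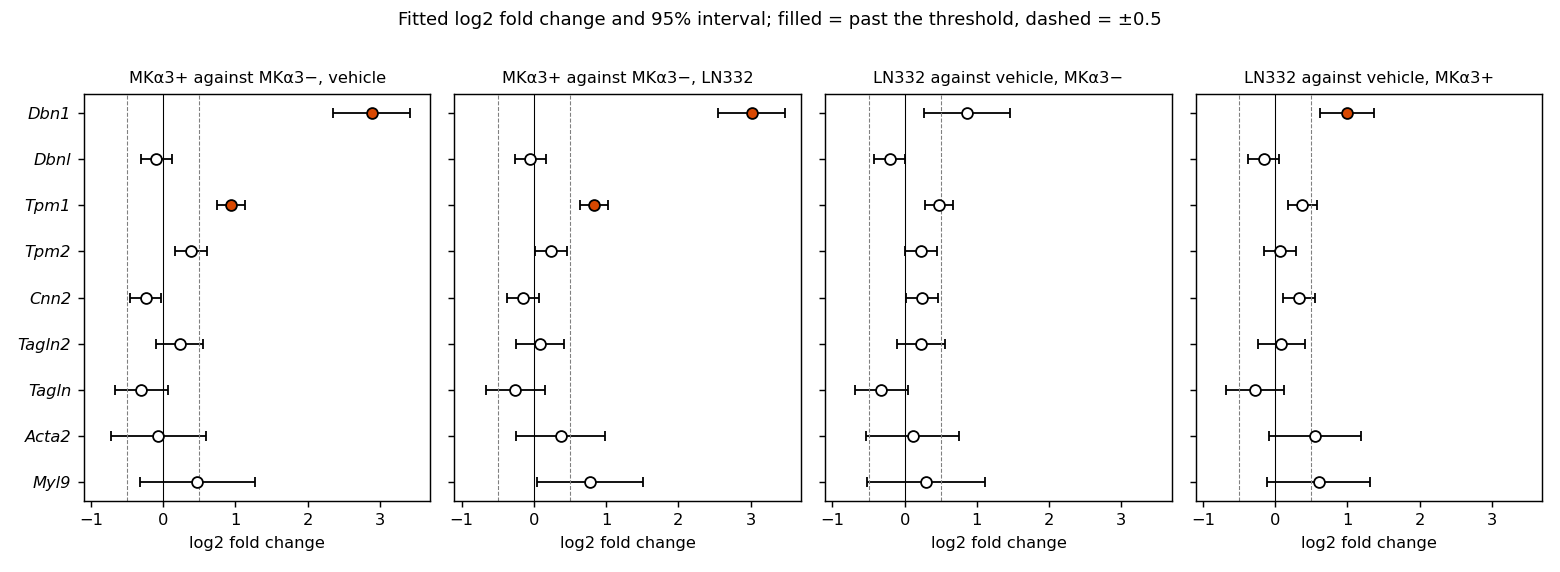
Fitted log2 fold change (horizontal axes) with its 95% interval for the 9 analysed genes in 4 comparisons, from limma-voom on all 16 libraries. Filled points are past the threshold and dashed lines mark a log2 fold change of 0.5 in each direction. *Dbn1* was chosen on the first and last panels, and *Tpm1* is the other gene past the threshold, at 0.93 and 0.83 between the lines.

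*Tpm1* (Entrez 22003, chromosome 9, 67022590 to 67049672), which encodes α-tropomyosin, was the clearest of the genes not chosen by a measured value. Vehicle-treated MKα3− libraries were at 496, 455, 424 and 478 CPM. Vehicle-treated MKα3+ libraries were at 898, 857, 912 and 870 CPM, all above them. *Tpm1* was therefore higher in MKα3+ cells by 1.91-fold, or 0.93 on the log2 scale (SE 0.09, limma-voom adjusted p = 7.29e-07). In LN332 it was higher by 0.83 on the log2 scale (SE 0.09, limma-voom adjusted p = 3.70e-06). Both calls were kept whichever of the 16 libraries was left out.

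Under LN332, *Tpm1* was at 627, 623, 591 and 735 CPM in MKα3− cells, above every vehicle library of that line. LN332-treated MKα3+ libraries were at 1183, 1016, 1220 and 1169 CPM, again above every vehicle library. The 4 groups thus formed 4 separate steps, with means of 463, 644, 884 and 1147 CPM from vehicle-treated MKα3− to LN332-treated MKα3+ cells. The LN332 response was 0.48 (SE 0.09) in MKα3− cells with an adjusted p of 0.0326 from limma-voom, and 0.37 (SE 0.10) in MKα3+ cells with an adjusted p of 0.139. Neither passed, the first because it was under the minimum change of 0.5, which it reached, at up to 0.52, without vehicle-treated MKα3− replicate 1 or LN332-treated MKα3− replicate 3. Leaving out a library moved its adjusted p between 0.0232 and 0.132, and it stayed under 0.05 for 6 of the 16. In each of these 4 comparisons of *Tpm1*, the exact permutation p was 0.0286 (two-sided, on CPM), the smallest that 4 libraries against 4 allow. Averaged over the lines the response was 0.42 (SE 0.07, limma-voom adjusted p = 0.00254), still under the minimum change, and the responses of the lines differed by −0.10 (95% interval −0.38 to 0.17).

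*Tpm2* (Entrez 22004, chromosome 4, 43513726 to 43523583), which encodes β-tropomyosin, was at 197, 160, 212 and 170 CPM in vehicle-treated MKα3− cells and at 226, 228, 262 and 249 CPM in vehicle-treated MKα3+ cells, without overlap. The difference was 0.39 on the log2 scale (SE 0.11, limma-voom adjusted p = 0.00980), under the minimum change. In LN332 the lines did not overlap either, at between 180 and 232 CPM and between 234 and 267 CPM, and were 0.23 apart on the log2 scale (adjusted p = 0.105). The LN332 responses of *Tpm2* were 0.23 in MKα3− and 0.07 in MKα3+ cells, and the groups overlapped in each line. The 2 tropomyosin genes among the members therefore had the same sign between the lines, but only *Tpm1* had non-overlapping groups with LN332. Counts per gene cannot separate the isoforms that each tropomyosin gene makes.

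*Cnn2* (Entrez 12798, chromosome 10, 79988600 to 79995400), the calponin of non-muscle cells, had the opposite sign between the lines. It was at 405, 365, 352 and 363 CPM in vehicle-treated MKα3− cells and at 284, 341, 314 and 314 CPM in vehicle-treated MKα3+ cells, so every MKα3+ library was below. The log2 fold change of −0.25 (SE 0.10) did not pass, with an adjusted p of 0.0838 from limma-voom. With LN332, MKα3+ libraries were at 406, 395, 394 and 377 CPM, each above the vehicle libraries. This response was 0.33 (SE 0.10, limma-voom adjusted p = 0.215 and exact permutation p = 0.0286). In MKα3− cells LN332-treated libraries were at 377, 412, 425 and 545 CPM and overlapped the vehicle group, with a response of 0.24, and of 0.12 without replicate 4 of the LN332 group. Averaged over the lines the response was 0.28 (SE 0.07, limma-voom adjusted p = 0.0360), under the minimum change.

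Neither transgelin passed the threshold in any comparison. *Tagln2* (Entrez 21346, chromosome 1, 172500246 to 172507375), the widely expressed transgelin, was at 215 ± 36.4 and 252 ± 49.7 CPM in MKα3− cells in vehicle and LN332, and at 252 ± 42.4 and 266 ± 37.0 CPM in MKα3+ cells (SD, n = 4). Its groups overlapped in every comparison, and its log2 fold changes were between 0.08 and 0.23. *Tagln* (Entrez 21345, chromosome 9, 45929628 to 45936058), the smooth muscle transgelin, was at 3.54, 3.76, 4.18 and 3.73 CPM in vehicle-treated MKα3− cells and at 2.91, 3.07, 2.84 and 3.37 CPM in LN332-treated MKα3− cells, which were all lower. The fitted response of −0.33 (SE 0.17) had a limma-voom adjusted p of 0.422. *Tagln* also had a negative response in MKα3+ cells, −0.28, with overlapping groups. Of its 1988 exon bases, 1241 lie opposite *Gm48529* and 108 opposite *Pcsk7*, and since no strand setting is named its counts are uncertain.

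*Acta2* (Entrez 11475, chromosome 19, 34240336 to 34255585), which encodes smooth muscle α-actin, ranged from 1.30 to 2.76 CPM in vehicle-treated MKα3− cells and from 1.42 to 2.47 CPM in vehicle-treated MKα3+ cells. LN332-treated MKα3+ libraries were at 2.89, 3.29, 3.07 and 2.92 CPM and did not overlap with their vehicle group, a 1.43-fold ratio. The fitted response was 0.55 (SE 0.30, limma-voom adjusted p = 0.606 and exact permutation p = 0.0286). LN332-treated MKα3− libraries were at 1.82, 1.94, 1.97 and 4.99 CPM, and the response there was 0.11 (95% interval −0.53 to 0.75), and −0.18 without replicate 4 of the LN332 group. *Myl9* (Entrez 98932, chromosome 2, 156775408 to 156781657), which encodes a regulatory light chain of myosin II, rested on 11 to 52 counts a library. Its means were 0.805, 0.951, 1.09 and 1.62 CPM from vehicle-treated MKα3− cells through LN332-treated MKα3− and vehicle-treated MKα3+ cells to LN332-treated MKα3+ cells, and the groups overlapped in every comparison. At this depth a difference between the lines in LN332 of 0.77 (SE 0.35) had an adjusted p of 0.1004 in limma-voom, of 0.0417 without LN332-treated MKα3+ replicate 1, and of 0.0106 with sample quality weights, which let noisier libraries count less.

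Among the 9 analysed genes, 0 passed the threshold with LN332 in MKα3− cells, where 0.304% of all genes did. By an unadjusted limma-voom p under 0.05 there were 4, *Dbn1* among them, against 2023 of all 14474 genes. The edgeR test called 0, against 47 of all genes, and DESeq2 called 1, *Dbn1*, against 165 of all genes. The vehicle libraries of *Dbn1* here were also used in its choice, so nothing is read from its part in these counts. In MKα3+ cells 1 of 9 passed, *Dbn1*, against 0.187% of all genes. It was chosen by this contrast, so nothing is read from this count, and no other member passed. The call of *Dbn1* was lost when any of 8 of the 16 libraries was left out. Averaged over the lines 1 of 9 passed, again *Dbn1*, against 1.35% of all genes, and since this average holds the response and the vehicle libraries by which *Dbn1* was chosen, nothing is read from it. For the difference of the responses 0 of 9 passed in limma-voom, edgeR or DESeq2, as for all genes (0%), and 0 of the 9 had an unadjusted p under 0.05, against 164 of all genes. Groups did not overlap for 2 of 9 genes with LN332 in MKα3− cells (4.95% of all genes), *Tpm1* above and *Tagln* below. They did not overlap for 4 of 9 genes in MKα3+ cells (9.66% of all genes), *Acta2*, *Cnn2*, *Tpm1* and *Dbn1*, all above, the last being chosen by this contrast. The median response of the 9 genes was 0.23 in MKα3− and 0.33 in MKα3+ cells, against −0.01 over all genes in each line. *Dbn1*, chosen by the MKα3+ response, is in both medians, so no shift of the set and no difference between the lines is read from them. Over all genes 35 rose and 9 fell with LN332 in MKα3− cells, against 24 and 50 when counts were scaled by library size alone, and 25 rose and 2 fell in MKα3+ cells, against 2 and 1.

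Per kilobase of exon (RPKM), the members formed an abundant and a scarce set. In vehicle-treated MKα3− cells *Cnn2* was highest at 151 RPKM, followed by *Tagln2* at 103, *Dbnl* at 91.1, *Tpm1* at 71.4 and *Tpm2* at 63.4 RPKM. *Tagln2* and *Dbnl* overlapped, as did *Tpm1* and *Tpm2*. The scarce set was *Tagln* at 1.91, *Dbn1* at 1.29, *Acta2* at 1.03 and *Myl9* at 0.693 RPKM, and each overlapped its neighbour in this order. In LN332-treated MKα3+ cells *Tpm1* at 177 and *Cnn2* at 160 RPKM led and overlapped, and *Dbn1* at 18.3 RPKM stood between the sets, above *Myl9* and *Acta2*, both at 1.39 RPKM, and *Tagln* at 1.29 RPKM. The exons of all *Tpm1* isoforms together span 6485 bases, more than a single transcript holds, so its level per length is understated.

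**Figure D3:**
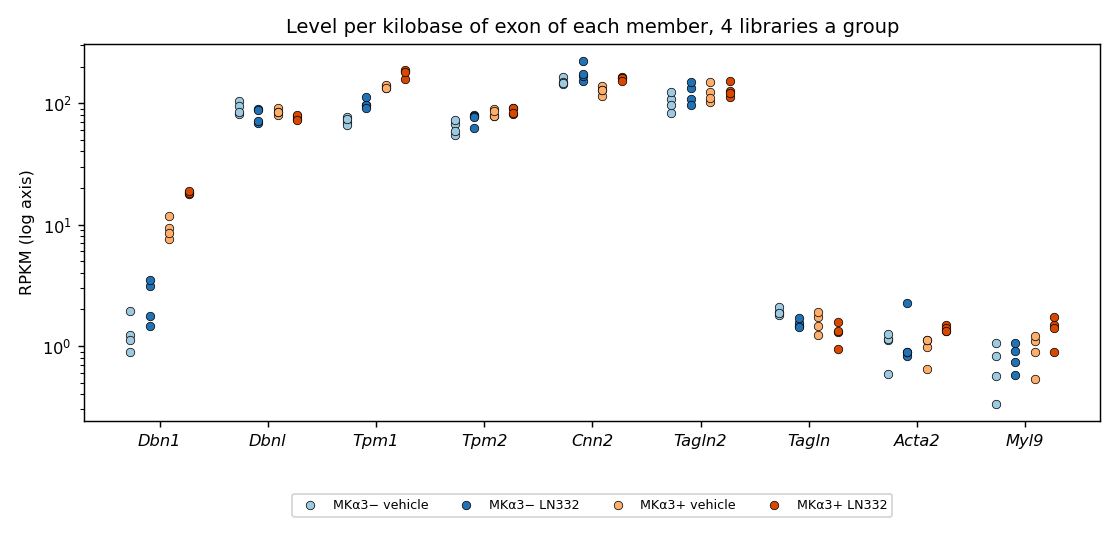
Reads per kilobase of exon, scaled to library size (RPKM, log axis) of the 9 analysed genes, with 1 point a library and 4 libraries in each group. *Dbn1* moves from the scarce genes, at 1.29 RPKM on average in vehicle-treated MKα3− cells, to 18.3 RPKM in LN332-treated MKα3+ cells.

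The genes whose log2 CPM followed *Dbn1* most closely over the 16 libraries, of 11801 genes compared, were *Usp43* (Pearson r = 0.987), *Rhpn2* (0.983), *Celf2* (0.977), *Krt7* (0.977) and *Nedd9* (0.977). Their group means had the order of those of *Dbn1*, from vehicle-treated MKα3− through LN332-treated MKα3− and vehicle-treated MKα3+ to LN332-treated MKα3+ cells. *Nedd9*, a focal adhesion scaffold, was at 13.4, 17.6, 42.0 and 64.4 CPM, and *Krt7*, a keratin of simple epithelia, at 1243, 1541, 2176 and 2632 CPM. With the group means removed, r was between 0.462 for *Nedd9* and 0.839 for *Usp43*. Among the members, *Tpm1* was the most like *Dbn1* (r = 0.971, and 0.592 with the group means removed), followed by *Tpm2* (0.706, and −0.466). The libraries fall into groups and share their line, treatment and depth, so these values describe the pattern and carry no test.

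**Figure D4:**
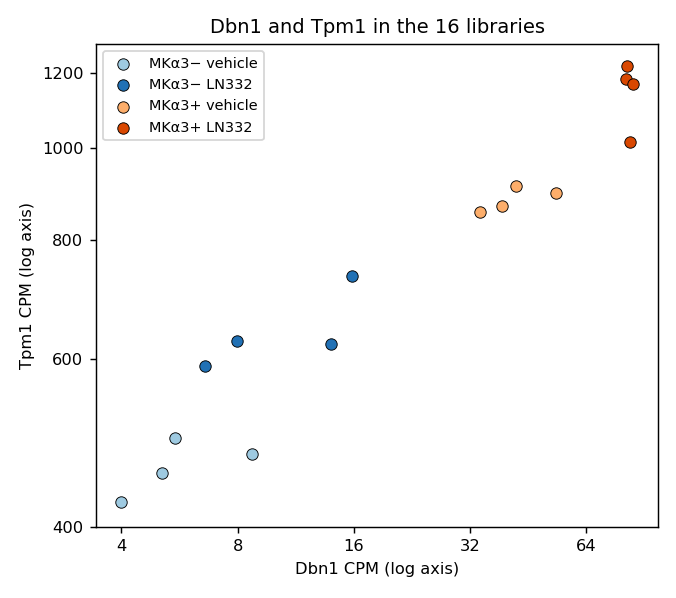
*Dbn1* (horizontal) and *Tpm1* (vertical) in CPM on log axes, with 1 point for each of the 16 libraries, coloured by group. The groups follow each other from lower left to upper right, and r was 0.971 over all libraries and 0.592 with the group means removed.

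Related genes were followed in 4 lists written with earlier results of these data known. Among actins and paralogs of the members 6 of 9 genes were tested and 0 passed the threshold in any comparison with limma-voom. Over all genes 18.5% passed between the lines in vehicle and 20.6% in LN332. With LN332 0.304% passed in MKα3− and 0.187% in MKα3+ cells. DESeq2 called 1, the tropomyosin gene *Tpm4*, with LN332 in MKα3− cells, where it called 165 of all 14474 genes, and edgeR called 0. For the LN332 response 4 of these genes in MKα3− and 5 in MKα3+ cells had an unadjusted limma-voom p under 0.05. Over all genes 2023 and 1388 had one. All 6 had a positive log2 fold change with LN332 in each line, with medians of 0.45 in MKα3− and 0.47 in MKα3+ cells. The most abundant, *Actb*, which encodes cytoplasmic β-actin and is named after its values were seen, went from 4651 to 6288 CPM in MKα3− cells and from 5736 to 7766 CPM in MKα3+ cells, without overlap in either line. Its response averaged over the lines was 0.43 (limma-voom adjusted p = 0.0105), under the minimum change. Of the 8 genes that share the actin-depolymerizing factor homology domain with drebrin, 0 passed with LN332 in either line by limma-voom, edgeR or DESeq2 (2 in MKα3− and 0 in MKα3+ cells by unadjusted limma-voom p under 0.05). Against the shares of all genes given above, nothing is read from these counts. In vehicle, where 18.5% of all genes passed in either direction, 1 of the 8 was lower in MKα3+ cells, *Cotl1*, an F-actin-binding coactosin, at −0.65 (limma-voom adjusted p = 0.0142).

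Of the 14 genes of myosin II and its switches, 3 were higher and 0 lower in MKα3+ cells in vehicle, and 4 were higher and 1 lower in LN332. Over all genes 18.5% passed in vehicle and 20.6% in LN332, in either direction. *Myh10*, the heavy chain of non-muscle myosin IIB, was the highest, with means of 6.66 CPM for MKα3− and 14.6 CPM for MKα3+ cells in vehicle, or 1.14 on the log2 scale (limma-voom adjusted p = 6.81e-05). The light chain gene *Myl6b* had the lowest value, −0.48 (adjusted p = 0.0886). With LN332, 0 of these 14 genes passed in either line by limma-voom, edgeR or DESeq2. In limma-voom 0.304% of all genes passed in MKα3− and 0.187% in MKα3+ cells. An unadjusted limma-voom p under 0.05 was found for 3 of the 14 in MKα3− and 2 in MKα3+ cells. Over all 14474 genes it was found for 2023 and 1388, and nothing is read from these counts. The median over the list was 0.27 between the lines in vehicle, and 0.12 and 0.09 for the LN332 responses in MKα3− and MKα3+ cells.

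The last list held SRF, its cofactors, other SRF targets of the cytoskeleton, and *Ccn1* and *Ccn2*, which are not cytoskeletal genes. Of 15 tested genes, 5 were higher and 1 lower in MKα3+ cells in vehicle (18.5% of all genes passed in either direction). In LN332 6 were higher and 0 lower (20.6% of all genes). The highest in vehicle were the matricellular genes *Ccn1*, at 1.42 (limma-voom adjusted p = 3.06e-05), and *Ccn2*, at 1.24 (adjusted p = 0.00036), and the lowest was *Csrp1*, a LIM protein gene, at −0.82 (adjusted p = 0.00537). *Ccn2* rose with LN332 by 2.01 in MKα3− cells (limma-voom adjusted p = 0.000683) and by 1.45 in MKα3+ cells (adjusted p = 0.0221). *Fhl2*, another LIM protein gene, rose by 0.54 in MKα3− cells (limma-voom adjusted p = 0.0403) and was at 0.43 in MKα3+ cells (adjusted p = 0.128). Averaged over the lines, *Ccn2*, *Ccn1*, *Pdlim7* and the zyxin gene *Zyx* rose, by 1.73, 0.84, 0.51 and 0.51. *Srf* itself was at between 93.5 and 107 CPM in the 4 group means and passed in no comparison. Of the exons of *Ccn2*, 665 of 2861 bases lie opposite *Gm15270*, and of *Zyx*, 236 of 5390 bases opposite *Epha1*, so their counts are uncertain to that extent.

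**Figure D5:**
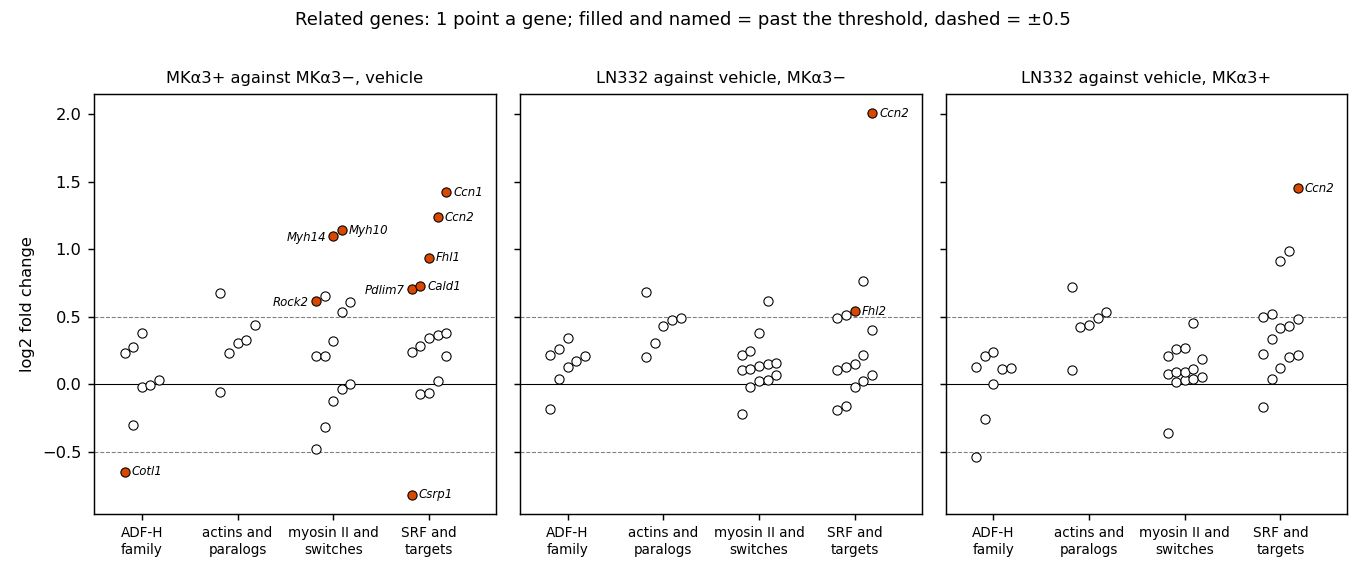
Log2 fold change (vertical axes) of related genes in 4 lists, 1 point a gene, between the lines in vehicle and with LN332 in each line. Filled, named points are past the threshold and dashed lines mark a log2 fold change of 0.5 in each direction. The named points with LN332 are *Ccn2* in each line and *Fhl2* in MKα3− cells.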

How the data were processed

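Poly(A) RNA from 16 libraries (4 groups of 4) was sequenced. The authors aligned the reads with Rsubread (mm10) and assigned them to Entrez genes with featureCounts, and the deposited values are unnormalized whole-number counts for 14474 genes. Whether counting used strand is not given in the sources used here. The low-count filter of the methods (more than 0.5 CPM in at least 3 libraries) removed 0 genes. The submitters' processing notes also list bcl2fastq 2.20.

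Groups and replicate numbers were taken from the sample titles. From the counts, TMM factors (edgeR 4.0.16) and voom weights, contrasts and moderated statistics (limma 3.58.1, R 4.3.3) were computed in 1 fit of all 16 libraries with a coefficient for each group. A gene was called at an adjusted p under 0.05 (Benjamini-Hochberg over all genes) with an absolute log2 fold change over 0.5. Single values were compared by two-sided exact permutation tests (70 splits), and edgeR's quasi-likelihood test and DESeq2 1.42.0 were among the alternatives. Levels per length used the union of exons of GENCODE genes on GRCm38, matched for 91.2% of the genes, and positions and promoter windows are from RefSeq on GRCm38.p6. No pair of replicates differed by as little as sampling noise, with chi-square per degree of freedom of at least 5.43. The procedure was tested on simulated data.

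The members and the lists of related genes and markers were chosen with earlier results of these data known. All members are named, together with list genes past the threshold in an LN332 response or among the 3 largest in each direction between the lines in vehicle, and the 5 genes most correlated with *Dbn1* among those averaging 1 or more in log2 CPM.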

Additional observations from a re-analysis of the deposited data

Results flagged for a closer look

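In 2 of the 36 combinations of gene and group a single library stood far from the other 3 of its group, against 1.8 expected by chance. Both were in the LN332-treated MKα3− group. *Acta2* reached 4.99 CPM in its replicate 4, against 1.82 to 1.97 CPM in the remaining libraries, and *Tpm2* was lowest in replicate 2, at 180 CPM against 224 to 232 CPM. The cause was not tested.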

How the results depend on the processing

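Across the alternatives, 593 values of single members, fold changes and group levels in CPM, were counted as unchanged. These were fold changes that kept their call, uncalled ones that moved by no more than their SE, and levels that moved by less than their SD. Another 5 fold changes gained the call and 3 lost it. The other 11 values moved by more than this without gaining or losing a call. Of log2 fold changes past the threshold, 0 of 65 alternative values changed sign. Of those not past it, 14 of 511 did, for 11 combinations of gene and comparison. With 1 library left out, *Acta2* went from −0.07 to 0.12 between the lines in vehicle and from 0.11 to −0.18 with LN332 in MKα3− cells, *Tagln2* from 0.08 to −0.03 between the lines in LN332, and the difference of the *Dbn1* responses from 0.13 to −0.11. Between the lines, *Dbn1* and *Tpm1* passed under every alternative but a minimum log2 fold change of 1, which left 1 member, *Dbn1*, in vehicle and 1, again *Dbn1*, in LN332, with 1362 and 1345 of all genes. With LN332 in MKα3− cells, DESeq2 called 1 member and 165 genes, library size alone 74 genes, sample quality weights 123 genes, only the compared groups in the fit 1 gene and a minimum of 1 on the log2 scale 6 genes, against 44 in the main analysis. In MKα3+ cells 0 members passed with edgeR, library size alone or a minimum of 1, and all genes numbered 4, 3 and 5. There DESeq2 called 123 genes, sample quality weights 454 and only the compared groups 107, against 27. Averaged over the lines, a minimum of 1 left 0 members and 13 genes, and sample quality weights called 464 genes, against 196. The cause of these shifts was not tested, except that a higher minimum retains fewer genes by construction.

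Leaving out 1 library at a time gave between 0 and 1 members with LN332 in each line. In MKα3− cells the member was *Tpm1*, and all genes numbered between 1 and 150. In MKα3+ cells it was *Dbn1*, which was lost without MKα3− vehicle replicate 2, MKα3+ vehicle replicates 2, 3 or 4, or any of the LN332-treated MKα3+ replicates, and all genes numbered between 0 and 47. Averaged over the lines all genes numbered between 114 and 321.

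The replicate numbers occur once in each group. Deviations from the group means correlated by more than 0.1 in 18 of 24 same-number pairs (range −0.05 to 0.62). The mean was 0.26 for pairs of the same number and −0.08 for pairs of different numbers. Of the 16 libraries, 13 correlated best with one of their own number, so libraries of the same number shared some variation. The labels do not say what the numbers mean, and the main fit did not use them as a block. With the replicate number as a block, 259 genes in MKα3− cells, 218 in MKα3+ cells and 363 averaged over the lines were called with LN332. Without it these numbers were 44, 27 and 196. The calls of members changed in 1 place, with *Myl9* higher in MKα3+ cells in LN332 at 0.85 (limma-voom adjusted p = 0.0446). Depth limits *Myl9* and *Acta2* most, at 11 to 52 and 37 to 102 counts a library.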
